A study of Homo sapiens with 8 samples.

Results

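The TGF-beta ligands TGFB1, TGFB2 and TGFB3 and the receptors TGFBR1, TGFBR2 and TGFBR3 were followed in 2 Ewing sarcoma (EwS) cell lines. With them were followed the signal transducers SMAD2 and SMAD3 and the inhibitory SMAD7. These 9 genes were taken by symbol from a matrix of 60332 genes, in which each had 1 row. The lines, RD-ES and SK-N-MC, were both established from EwS, and each gave 2 control and 2 eKD2 RNA-seq libraries, 8 in total. In eKD2 cells, dCas9-KRAB (a Cas9 without cutting activity that brings the KRAB repressor domain to DNA) was directed by a guide RNA to the LOXHD1 enhancer at its GGAA repeat. Control cells are given in the labels as infected with an empty dCas9-KRAB virus and in the study's text as parental. Infection was at a multiplicity of 10, and cells were selected for 3 days with 1 µg/ml puromycin and used within 5 passages. The eKD2 cells were polyclonal pools, and all 4 groups carry the EWSR1 fusion that defines EwS.

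TGF-beta ligands are secreted in a latent form and bind, once released, to the type II receptor TGFBR2, which then recruits and phosphorylates the type I receptor TGFBR1. TGFBR1 phosphorylates SMAD2 and SMAD3, which enter the nucleus with SMAD4, whereas the inhibitory SMAD7 is induced by the pathway and shuts the receptors off. In EwS the pathway is known for its type II receptor, a gene that EWSR1::FLI1 has been described to repress.

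LOXHD1, the gene that the silenced enhancer drives, was at 21.4 and 21.2 FPKM (reads per length of transcript and library size) in RD-ES control but only 1.04 and 1.02 FPKM after eKD2. In SK-N-MC it was at 159 and 169 FPKM in control and at 11.0 and 12.0 FPKM in eKD2, so the labels of all 8 libraries fit the knockdown. All 11 EwS markers examined, among them CD99, NKX2-2 and FLI1, were above 1 FPKM in every library. Depth was estimated at 7.51 to 30.2 M reads (M, mega) per library, with RD-ES eKD2 replicate 1 as the shallowest, and these estimates are rough.

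To show the regulatory sequence next to the 2 members that differed most between the lines, in opposite directions, the 250 bases before a RefSeq start are printed for TGFBR2 and TGFB3. Both were placed by exact match on GRCh37, TGFBR2 at chr3:30647598-30647847 on the plus strand and TGFB3 at chr14:76449355-76449604 on the minus strand, and neither overlaps an annotated exon. Capitals mark GGAA or its reverse complement TTCC, the core that ETS factors such as FLI1 recognise.
TGFBR2: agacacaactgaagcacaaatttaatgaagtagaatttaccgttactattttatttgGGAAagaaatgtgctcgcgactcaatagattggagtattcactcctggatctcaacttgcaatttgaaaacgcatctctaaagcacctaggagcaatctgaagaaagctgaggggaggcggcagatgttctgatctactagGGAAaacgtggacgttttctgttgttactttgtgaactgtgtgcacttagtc
TGFB3: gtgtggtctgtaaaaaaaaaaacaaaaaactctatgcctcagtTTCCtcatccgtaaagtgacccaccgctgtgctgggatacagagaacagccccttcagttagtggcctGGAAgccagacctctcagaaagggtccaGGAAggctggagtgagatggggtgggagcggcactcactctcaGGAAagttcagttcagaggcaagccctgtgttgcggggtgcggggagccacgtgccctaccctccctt
The TGFBR2 window holds the core 2 times and the TGFB3 window 4 times. Each is the window furthest upstream of its gene, and the count depends on the start, since the next TGFBR2 window (chr3:30647843-30648092) holds the core 4 times. Over the 35116 RefSeq windows of 250 bases, 92.7% hold it on either strand, with a median of 3 per window, so the match does not set these promoters apart. The 9 members have 25 such windows, since several have more than 1 start. Of these, 21 hold GGAA and 1, at a TGFBR1 start (chr9:101866084-101866333), holds the tandem GGAAGGAA, which 3.06% of all windows hold. The letters CAGAC or GTCTG, a box that SMAD proteins bind, stood in 10 of the 25 member windows against 38.0% of all windows.

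Levels spread widely within the pathway. In RD-ES control the order by mean FPKM, which is comparable between genes because it is divided by transcript length, was SMAD2, TGFB1, SMAD3, TGFBR1, TGFB3, SMAD7, TGFBR3, TGFB2 and TGFBR2. The libraries of TGFB1 and SMAD3 overlapped, as did those of SMAD7 and TGFBR3 and those of TGFB2 and TGFBR2, so these neighbours could not be ordered. In SK-N-MC control the order was SMAD2, TGFB1, TGFB3, SMAD3, SMAD7, TGFBR1, TGFBR3, TGFB2 and TGFBR2, with no overlap between neighbours. TGFBR2 was thus the lowest member in the control cells of both lines, overlapping TGFB2 in RD-ES. Of the 15175 genes whose mean over all libraries reached 1 FPKM, 91.4% had a higher mean than TGFBR2 in RD-ES control and 95.1% in SK-N-MC control. As TGFBR2 itself did not reach 1 FPKM on average, high shares follow in large part from this choice of genes. TGFBR2 and TGFB2 lay below that filter and 7 of the 9 members passed it, so both were tested in a fit of the 31445 genes with any value above 0.

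**Figure D1:**
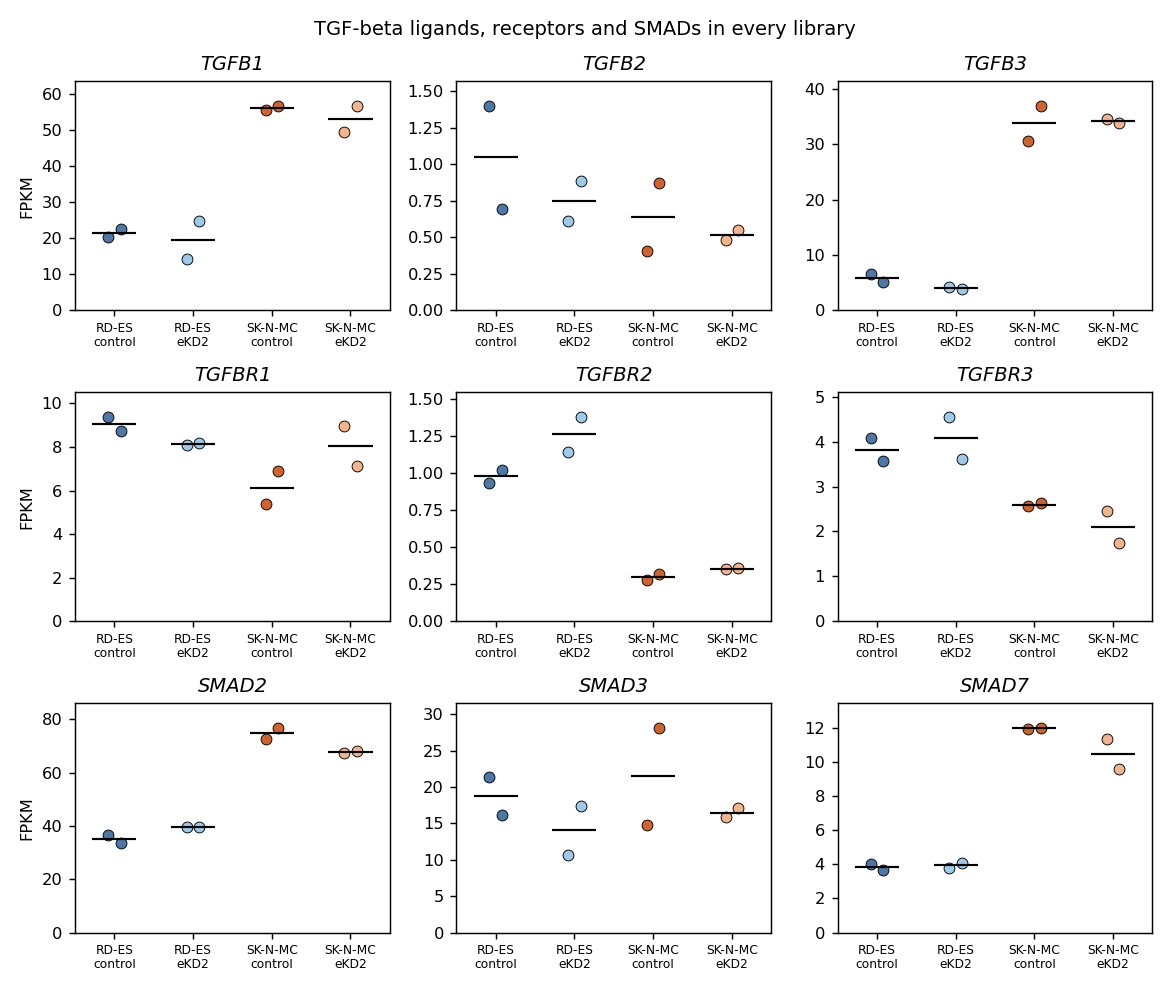
FPKM (y axis, from 0, a scale of its own in each panel) of each of the 9 members in the 4 groups. Points are single libraries and lines are means of 2 libraries. TGFB1, TGFB3, SMAD2 and SMAD7 sit higher in SK-N-MC control than in RD-ES control, and TGFBR1, TGFBR2 and TGFBR3 sit lower.

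Between the control cells of the lines, the ligands TGFB1 and TGFB3, the transducer SMAD2 and the inhibitory SMAD7 were higher in SK-N-MC. The receptors TGFBR1 and TGFBR2 were lower, though the TGFBR1 call is not firm. This comparison asks how the pathway stands in each line before the enhancer was silenced. Of the 7 members over the filter, 4 were called higher in SK-N-MC (limma, adjusted p under 0.05) and 1 was called lower. The lines differ widely in all genes, with 57.8% of the 15175 called, 31.4% higher and 26.4% lower in SK-N-MC, and a share of 5 in 7 has to be read against that. Of all calls 54.3% were higher in SK-N-MC, a share that fell to 45.2% after median scaling and 49.4% after quantile normalization. The median log2 difference of these 7 members was 1.06, beside 0.06 for all genes tested. It leaves out TGFBR2 and TGFB2, which lay below the filter and had negative log2 differences of -0.61 and -0.32 (limma without filter). The median of these 7 therefore does not describe the pathway as a whole. In such bulk RNA, fewer cells of a type and less RNA per cell cannot be told apart.

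TGFB3, a ligand gene on chromosome 14 (GRCh37 chr14:76424440-76449354, minus strand), showed the widest gap. It was at 6.56 and 5.15 FPKM in RD-ES control and at 30.6 and 37.0 FPKM in SK-N-MC control, so both SK-N-MC libraries lay far above both RD-ES libraries. The means were 5.86 ± 0.995 and 33.8 ± 4.48 FPKM (SD, n = 2 each), a ratio of 5.77 and a log2 difference of 2.34 (standard error, SE, 0.14, limma adjusted p = 5.7e-05). TGFB3 lay above the 95th percentile of all genes, which was 1.85 on the log2 scale.

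TGFB1, the most studied ligand (chr19:41807492-41859827, minus strand), was at 20.2 and 22.6 FPKM in RD-ES control and at 55.5 and 56.8 FPKM in SK-N-MC control, with no overlap. The means of 21.4 ± 1.66 and 56.1 ± 0.925 FPKM (SD, n = 2 each) differed 2.62-fold, a log2 difference of 1.35 (SE 0.24, limma adjusted p = 0.0037). TGFB1 shares 118 bases of exon with HNRNPUL1 on the opposite strand, a gene at 126 to 230 FPKM, and the library kit does not mark strand, so some TGFB1 reads may belong to HNRNPUL1. TGFB2 (chr1:218518678-218617961, plus strand), the third ligand, was scarce. It was at 1.40 and 0.693 FPKM in RD-ES control and at 0.404 and 0.871 FPKM in SK-N-MC control. These groups overlapped, and the log2 difference of -0.32 did not pass the test (limma without filter, adjusted p = 0.38). The ratio of TGFB1 to TGFB3 FPKM was 3.08 and 4.38 in the RD-ES control libraries and 1.81 and 1.54 in the SK-N-MC control libraries, without overlap and with no test. The antisense genes TGFB2-AS1 and TGFB3-AS1, which share exon bases with TGFB2 and TGFB3, did not exceed 0.219 and 0.355 FPKM in any library. TGFB2-OT1, on the same strand, shares 1371 exon bases with TGFB2 and was at 0.132 to 0.519 FPKM, so reads of these genes may be split between them.

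TGFBR2, the type II receptor (chr3:30648093-30735634, plus strand), was at 0.936 and 1.02 FPKM in RD-ES control and at 0.277 and 0.324 FPKM in SK-N-MC control. Both SK-N-MC libraries lay below both RD-ES libraries, and the mean of 0.300 ± 0.0326 FPKM was 69.3% lower than 0.979 ± 0.0610 FPKM (SD, n = 2 each). The log2(FPKM + 1) difference was -0.61 (SE 0.10, limma without filter, adjusted p = 0.0077), in a fit that called 30.8% of its 31445 genes. A pseudocount of 1 FPKM compresses the difference of so low a gene, and with a pseudocount of 0.1 it was -1.43. The values of TGFBR2 rest on about 19 to 87 reads per library, as estimated from its length, and those of TGFB2 on about 26 to 103.

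TGFBR1, the type I receptor (chr9:101866320-101916474, plus strand), was at 9.39 and 8.73 FPKM in RD-ES control and at 5.36 and 6.89 FPKM in SK-N-MC control. The groups did not overlap, and the means of 9.06 ± 0.463 and 6.12 ± 1.08 FPKM (SD, n = 2 each) gave a log2 difference of -0.51 (SE 0.15, limma adjusted p = 0.0269). This call is not firm. Its adjusted p was 0.119 without RD-ES control replicate 1, 0.0774 without RD-ES control replicate 2 and 0.141 without SK-N-MC control replicate 1, 0.0701 when only the control groups were fitted and 0.0562 with no filter. TGFBR1 FPKM was 10.0 and 8.54 times TGFBR2 FPKM in the RD-ES control libraries and 19.3 and 21.3 times in the SK-N-MC control libraries, with no overlap and no test. TGFBR3 or betaglycan, the co-receptor that presents ligand (chr1:92145900-92371892, minus strand), was at 4.07 and 3.57 FPKM in RD-ES control and at 2.56 and 2.63 FPKM in SK-N-MC control. Both SK-N-MC libraries lay lower, and the log2 difference of -0.42 missed the threshold (SE 0.17, limma adjusted p = 0.0766). It passed after median scaling (0.0433), after quantile normalization (0.0405) and when only the control groups were fitted (0.0459).

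SMAD2, which carries the signal from the receptors (chr18:45335328-45457517, minus strand), was at 36.7 and 33.8 FPKM in RD-ES control and at 72.6 and 76.8 FPKM in SK-N-MC control, well apart. The means of 35.2 ± 2.10 and 74.7 ± 2.95 FPKM (SD, n = 2 each) differed 2.12-fold, a log2 difference of 1.06 (SE 0.07, limma adjusted p = 8.5e-05). SMAD7, the inhibitory member (chr18:46446223-46477335, minus strand), was at 4.02 and 3.70 FPKM in RD-ES control and at 12.0 and 12.0 FPKM in SK-N-MC control. These libraries did not overlap either, and the 3.10-fold ratio of the means gave a log2 difference of 1.42 (SE 0.11, limma adjusted p = 1.5e-04). SMAD3, the other transducer (chr15:67356101-67487511, plus strand), was at 21.4 and 16.2 FPKM in RD-ES control and at 14.8 and 28.1 FPKM in SK-N-MC control. Its replicates spread more than the lines did, and the log2 difference of 0.13 (95% interval -0.71 to 0.97) did not pass the test (limma adjusted p = 0.78).

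The sum of markers of other cell types was higher in SK-N-MC control. The 12 such markers with a row, out of 13 listed, summed to 15.4 to 22.0 FPKM in RD-ES control and to 208 to 214 FPKM in SK-N-MC control. Most of this was the stromal gene DCN, at 138 and 134 FPKM in SK-N-MC control, with LUM at 42.1 and 38.6 FPKM. The leukocyte gene PTPRC stood at 22.6 and 21.5 FPKM in SK-N-MC control and at 0.0173 and 0.0136 FPKM in RD-ES control. Not all of the 12 went this way. The fibroblast marker PDGFRB was higher in RD-ES control (8.11 and 13.6 FPKM) than in SK-N-MC control (5.49 and 7.45 FPKM). CD68, another leukocyte marker, overlapped, at 1.16 and 1.85 FPKM in RD-ES control and 0.642 and 1.27 FPKM in SK-N-MC control. In the eKD2 libraries the 12 markers summed to 24.5 to 30.1 FPKM in RD-ES, above both controls, and to 223 to 234 FPKM in SK-N-MC, also above both. These sums hide opposite moves. In SK-N-MC eKD2, DCN was at 159 FPKM in each library, above both controls. PDGFRB (3.91 and 1.68 FPKM) and EPCAM (3.68 and 2.96 FPKM, controls 4.03 and 4.54 FPKM) fell below theirs. In RD-ES eKD2, CD68 (2.49 and 4.17 FPKM) lay above both controls, PDGFRB overlapped its controls, and CDH1 was raised in replicate 1 only. None of the 12 was at 0 in all libraries, and their part in the differences between the lines, and in those under eKD2, was not tested.

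**Figure D2:**
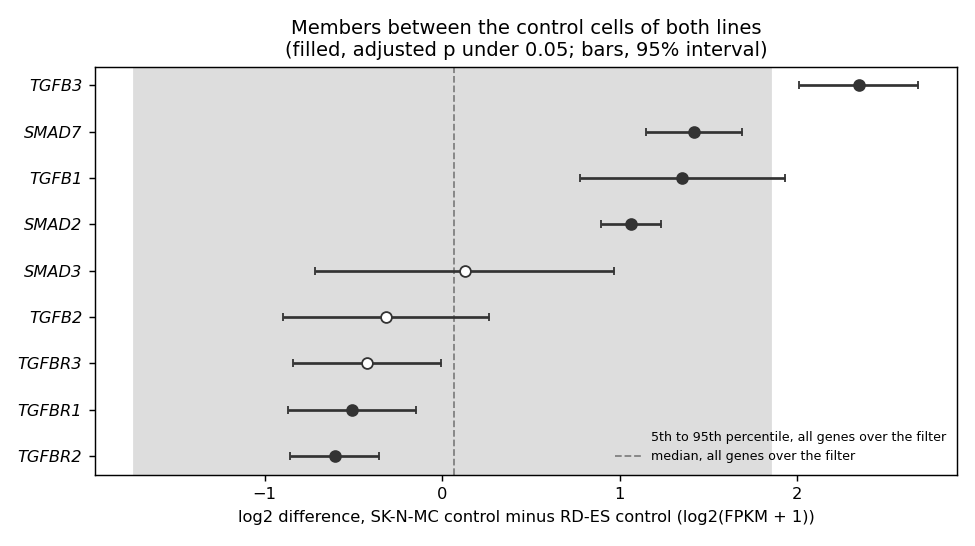
Difference on the log2(FPKM + 1) scale (x axis, SK-N-MC control minus RD-ES control) of the 9 members, with 95% intervals, TGFBR2 and TGFB2 from the fit with no filter. The band spans the 5th to 95th percentile of the 15175 genes, -1.73 to 1.85, and TGFB3 lies beyond it at 2.34, whereas the 3 receptors lie on the lower side.

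Silencing of the LOXHD1 enhancer called none of the members in either line. In RD-ES 0 of the 7 members over the filter passed the adjusted threshold of limma, which 0.343% of all genes passed, and 1, TGFB3, had an unadjusted p under 0.05, as did 12.3% of all genes. In SK-N-MC 0 of 7 passed, beside 0.323% of all genes, and 0 had an unadjusted p under 0.05, beside 13.0%. Counted over all 9 members, the eKD2 and control libraries stood apart for 4 members in RD-ES and for 5 in SK-N-MC, where 39.3% and 47.3% of the 15175 genes did not overlap either. With 2 libraries a group, the smallest two-sided p that an exact permutation test can give is 0.333, and all p-values come from the limma model across genes.

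Among the ligands, TGFB3 was at 6.56 and 5.15 FPKM in RD-ES control and 4.28 and 3.87 FPKM after eKD2, with both eKD2 libraries below both controls. Its mean went from 5.86 to 4.08 FPKM, a log2 fold change of -0.43 (SE 0.14, limma adjusted p = 0.31), which does not hold over all genes. In SK-N-MC it was at 34.6 and 33.9 FPKM in eKD2, within the range of the controls (log2 fold change 0.02, 95% interval -0.31 to 0.36). TGFB1 was at 14.2 and 24.8 FPKM in RD-ES eKD2, on both sides of its controls, and at 49.6 and 56.7 FPKM in SK-N-MC eKD2, overlapping them. Its log2 fold changes were -0.17 and -0.08, and the first turned to 0.21 without RD-ES eKD2 replicate 1. In eKD2 cells TGFB2 was at 0.610 and 0.887 FPKM for RD-ES and at 0.481 and 0.553 FPKM for SK-N-MC, overlapping the controls in both lines.

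Among the receptors, TGFBR2 was at 1.14 and 1.38 FPKM in RD-ES eKD2, above both of its controls (0.936 and 1.02 FPKM). In SK-N-MC eKD2 it was at 0.353 and 0.361 FPKM, again above both controls (0.277 and 0.324 FPKM). TGFBR2 was the one member whose eKD2 libraries lay above the controls in both lines, by 29.0% (RD-ES) and by 18.8% (SK-N-MC) on the means. Neither shift passed the test, with log2 fold changes of 0.19 (SE 0.10, limma without filter, adjusted p = 0.68) and 0.06 (SE 0.10, adjusted p = 0.95). The highest TGFBR2 value in any library was 1.38 FPKM. Its SK-N-MC values rest on about 36 and 19 reads in control and about 36 and 39 in eKD2. In single lines, 39.3% (RD-ES) and 47.3% (SK-N-MC) of the 15175 genes stood apart in either direction. The share that lay higher in both lines was not counted.

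TGFBR1 was at 8.11 and 8.20 FPKM in RD-ES eKD2, below both controls, and at 8.97 and 7.13 FPKM in SK-N-MC eKD2, above both controls. On the log2 scale TGFBR1 differed by -0.14 from control in RD-ES (limma adjusted p = 0.75) and by 0.35 in SK-N-MC (adjusted p = 0.40). TGFBR3 was at 4.55 and 3.60 FPKM in RD-ES eKD2, overlapping its controls, and at 2.46 and 1.74 FPKM in SK-N-MC eKD2, below both controls (log2 fold change -0.22, limma adjusted p = 0.65). TGFBR1 FPKM in eKD2 was 7.09 and 5.93 times TGFBR2 FPKM in RD-ES, below both control ratios, and 25.4 and 19.8 times in SK-N-MC, overlapping them.

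Among the SMADs, SMAD2 was at 39.5 and 39.6 FPKM in RD-ES eKD2, above both controls (36.7 and 33.8 FPKM), and at 67.5 and 68.0 FPKM in SK-N-MC eKD2, below both controls (72.6 and 76.8 FPKM). The shifts were small, 12.2% up and 9.31% down on the means, with log2 fold changes of 0.16 (SE 0.07, limma adjusted p = 0.43) and -0.14 (SE 0.07, adjusted p = 0.48). In eKD2 cells SMAD3 was at 10.6 and 17.4 FPKM for RD-ES and at 15.8 and 17.1 FPKM for SK-N-MC, overlapping the controls in both lines. Its intervals were the widest of the 9 members, -1.26 to 0.42 and -1.14 to 0.54 on the log2 scale. SMAD7 was at 3.78 and 4.10 FPKM in RD-ES eKD2, overlapping, and at 11.3 and 9.57 FPKM in SK-N-MC eKD2, below both controls (log2 fold change -0.18, limma adjusted p = 0.53).

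**Figure D3:**
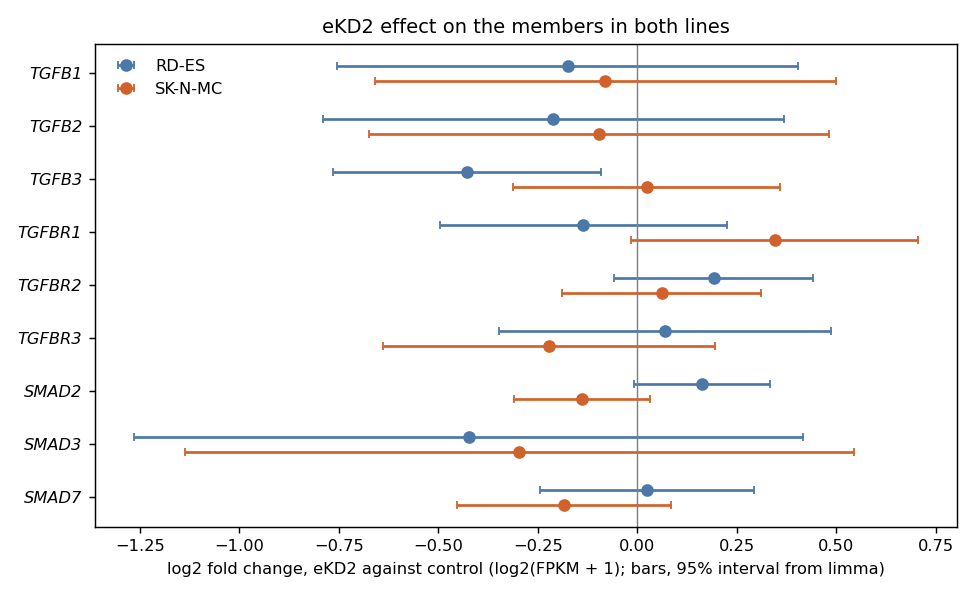
Fold change on the log2(FPKM + 1) scale (x axis, eKD2 against control) of the 9 members in RD-ES and SK-N-MC, with 95% intervals from limma. The RD-ES interval of TGFB3, -0.76 to -0.09, leaves out 0 before adjustment, and every other interval shown includes it.

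Whether eKD2 acted differently in the lines was tested as an interaction, which called 0 of the 7 members over the filter and 0.244% of all genes. SMAD2 alone among them had an unadjusted p under 0.05, as did 13.5% of all genes. The SMAD2 log2 fold change was lower in SK-N-MC than in RD-ES (log2 difference -0.30, 95% interval -0.54 to -0.06, limma adjusted p = 0.29). For TGFBR1 the log2 difference was 0.48 (limma adjusted p = 0.40) and for TGFB3 0.45 (limma adjusted p = 0.40).

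SMAD2 and SMAD7 lie on chromosome 18 on the same side of LOXHD1 (chr18:44056935-44237183), 1.10 and 2.21 Mb from it. As dCas9-KRAB was aimed at LOXHD1, the genes within 5 Mb were examined together. Of 35 such genes over the filter, 0 were called in either line by limma, while unadjusted p-values under 0.05 were found for 5 of them in RD-ES and for 4 of them in SK-N-MC. Over all genes 0.343% and 0.323% were called and 12.3% and 13.0% had such unadjusted values. The median log2 fold change of these neighbours was 0.08 for RD-ES and -0.05 for SK-N-MC, beside 0.03 and -0.00493 for all genes. SMAD2 at 0.16 and -0.14 and SMAD7 at 0.02 and -0.18 lay among their neighbours.

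**Figure D4:**
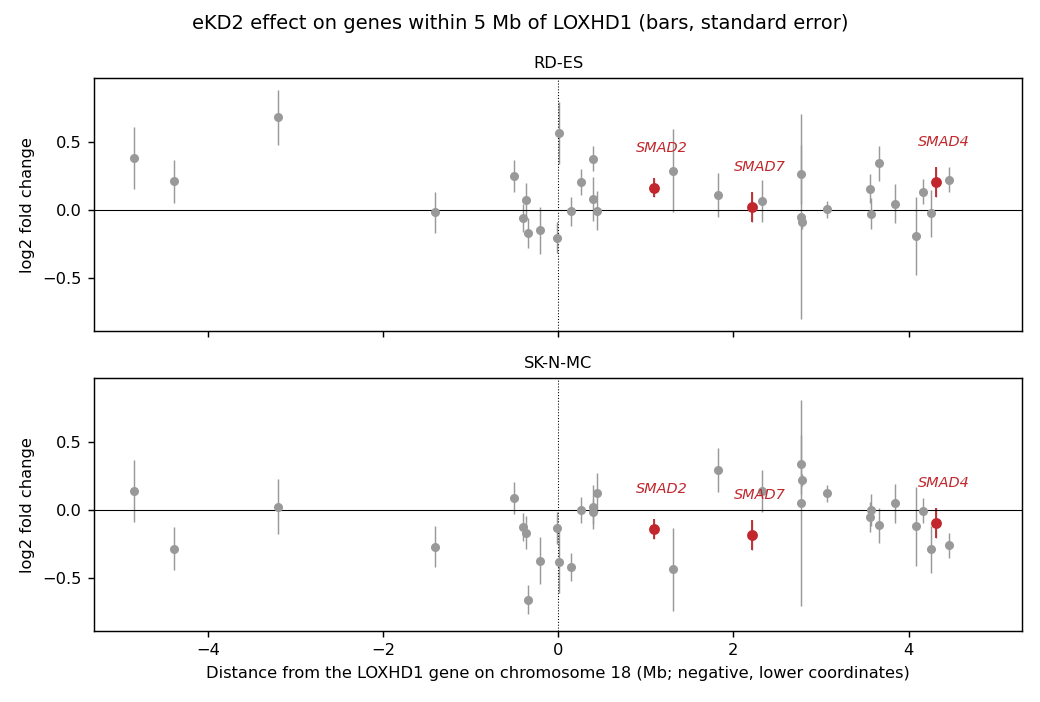
Fold change on the log2 scale (y axis, eKD2 against control, bars of 1 standard error) against the distance from LOXHD1 in Mb (x axis) for 34 of the 35 genes over the filter within 5 Mb, leaving out 1 RNA gene of under 200 bases. SMAD2, SMAD7 and SMAD4, in red, stay close to 0 in both lines.

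The other genes of the pathway were grouped into 6 lists with 92 genes, of which 62 passed the filter. Between the control lines, 41 of the 62 were called, 30 higher and 11 lower in SK-N-MC, which is 66.1% beside 57.8% of all genes. The median log2 difference of a list ran from -0.03 for other receptors to 1.04 for other ligands, beside 0.06 for all genes. Among other ligands 3 of 6 tested genes were higher and 1 was lower in SK-N-MC, beside 31.4% and 26.4% of all genes. BMP6, a bone morphogenetic protein, was at 0.743 and 0.631 FPKM in RD-ES control and at 11.3 and 11.6 FPKM in SK-N-MC control (log2 difference 2.89, limma adjusted p = 1.4e-05). It was under 1 FPKM in every RD-ES library and passed the filter only through SK-N-MC. BMP2 was at 1.28 and 1.24 against 8.35 and 8.53 FPKM (log2 difference 2.06, limma adjusted p = 1.3e-04). INHBE, an inhibin beta subunit, was at 0.211 FPKM in 1 RD-ES control library, was listed at 0 in the other, and stood at 1.51 and 1.57 FPKM in SK-N-MC control (limma adjusted p = 0.0169). In RD-ES eKD2 it was at 1.08 and 0.339 FPKM, so it passed the filter only through SK-N-MC. Its adjusted p rose to between 0.0611 and 0.0749 without RD-ES control replicate 2, SK-N-MC control replicate 1 or SK-N-MC control replicate 2.

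Among other receptors 3 of 10 tested genes were higher and 4 were lower in SK-N-MC control, beside 31.4% and 26.4% of all genes. ACVRL1, the type I receptor known from endothelium, was at 4.58 and 4.91 FPKM in RD-ES control against 0.675 and 0.616 FPKM in SK-N-MC control (log2 difference -1.80, limma adjusted p = 1.8e-04). It was under 1 FPKM in every SK-N-MC library and passed the filter only through RD-ES. The BMP type II receptor BMPR2 went the other way, 9.01 and 9.21 against 22.8 and 23.6 FPKM (log2 difference 1.26, limma adjusted p = 5.7e-05). ACVR2B, a type II receptor for activins, had means of 6.19 ± 0.242 against 2.61 ± 0.153 FPKM (SD, n = 2 libraries each). The log2 difference was -0.99 (limma adjusted p = 5.1e-04). The receptors thus differed in both directions, as TGFBR2 on the one side and BMPR2 on the other show, while the TGFBR1 call is not firm.

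All 5 other SMADs were tested, and 4 were higher in SK-N-MC control with 0 lower, beside 31.4% and 26.4% of all genes. SMAD9, a transducer of BMP signals, was at 10.9 and 10.8 FPKM in RD-ES control and at 36.4 and 33.1 FPKM in SK-N-MC control (log2 difference 1.59, limma adjusted p = 3.9e-05). SMAD6, the second inhibitory SMAD, was at 7.57 and 11.3 against 14.8 and 19.1 FPKM (log2 difference 0.79, limma adjusted p = 0.0182). SMAD1 was at 21.5 and 30.1 against 35.8 and 41.1 FPKM (log2 difference 0.57, limma adjusted p = 0.0272). The last calls are weak. SMAD6 lost its call without RD-ES control replicate 1 (0.0823) or SK-N-MC control replicate 2 (0.111) and when only the control groups were fitted (0.0752). SMAD1 lost its call without RD-ES control replicate 1 (0.0931), SK-N-MC control replicate 1 (0.0623) or SK-N-MC control replicate 2 (0.140). It also lost it after median scaling (0.0534), in the fit of the control groups only (0.0911) and with no filter (0.0567).

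Of the genes for ligand latency and activation, 4 of 6 tested were higher in SK-N-MC control and 0 were lower. Over all genes 31.4% were called higher and 26.4% lower. LTBP1, which tethers latent ligand to the matrix, was at 2.13 and 1.19 FPKM in RD-ES control and at 16.5 and 17.7 FPKM in SK-N-MC control (log2 difference 2.79, limma adjusted p = 8.5e-04). LTBP4, its relative, was at 38.3 and 44.0 against 138 and 166 FPKM (log2 difference 1.86, limma adjusted p = 6.9e-05). ITGAV, the integrin chain that helps release the ligand, was at 13.8 and 15.5 against 33.2 and 28.2 FPKM (log2 difference 1.01, limma adjusted p = 8.3e-04). Of the intracellular regulators, 6 of 19 were higher and 5 were lower, close to the all-gene shares. Their largest differences were those of SKIL, a SMAD co-repressor (11.2 and 11.1 against 27.9 and 31.9 FPKM, limma adjusted p = 0.0027), and BAMBI, a pseudoreceptor that dampens signalling (7.78 and 8.75 against 21.3 and 23.0 FPKM, limma adjusted p = 1.9e-04). WWP1, a ubiquitin ligase, followed (19.1 and 18.2 against 44.6 and 44.8 FPKM, limma adjusted p = 5.9e-04).

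Among 16 tested response genes, which TGF-beta or BMP induces in many cells, 10 were higher and 1 was lower in SK-N-MC control, beside 31.4% and 26.4% of all genes. The collagen gene COL1A2 was at 0.266 and 0.792 FPKM in RD-ES control and at 87.1 and 85.1 FPKM in SK-N-MC control (log2 difference 5.85, limma adjusted p = 5.7e-06). COL1A2 and SNAI2, both among the genes called higher, were under 1 FPKM in every RD-ES library and passed the filter only through SK-N-MC. BHLHE40, also called higher, exceeded 1 FPKM in RD-ES only in eKD2 replicate 1 (1.34 FPKM). It too passed the filter only through SK-N-MC, with 1.89 and 1.38 FPKM in control. COL1A1 was at 5.49 and 7.05 against 40.7 and 44.2 FPKM (log2 difference 2.59, limma adjusted p = 2.8e-05). ACTA2, the smooth muscle actin, was the gene that was lower, at 17.5 and 22.7 against 1.74 and 1.18 FPKM (log2 difference -3.10, limma adjusted p = 1.1e-04).

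Under eKD2, 1 of the 62 pathway genes was called in RD-ES (1.61% beside 0.343% of all genes) and 0 in SK-N-MC (beside 0.323%). At an unadjusted p under 0.05 limma gave 11 and 10 of the 62, beside 12.3% and 13.0% of all genes. The called gene was KLF10, a zinc finger factor first described as an early TGF-beta response gene. It rose from 8.63 and 9.23 FPKM in RD-ES control to 27.4 and 29.1 FPKM in RD-ES eKD2. The means of 8.93 ± 0.426 and 28.2 ± 1.15 FPKM (SD, n = 2 each) differed 3.16-fold, a log2 fold change of 1.56 (SE 0.08, limma adjusted p = 0.0015). In SK-N-MC it was at 17.4 and 17.3 FPKM in control and at 18.4 and 17.2 FPKM in eKD2, which overlap (log2 fold change 0.03). The difference between the lines itself passed the test (log2 difference -1.53, SE 0.11, limma adjusted p = 0.0074), and KLF10 was the 1 pathway gene of 62 for which it did. With a replicate block that call was lost (adjusted p = 0.0950). The call in RD-ES was lost when RD-ES was fitted alone (adjusted p = 0.157, the highest of 11 alternatives, whose lowest was 0.0016). That fit called 1 gene in all, against 52 in the main fit.

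The median log2 fold change of a list lay between 0.04 and 0.22 in RD-ES, beside 0.03 for all genes, and between -0.17 and 0.15 in SK-N-MC, beside -0.00493. In the other 5 lists, and among response genes in SK-N-MC, the gene with the smallest p did not pass. In RD-ES these were the receptor ACVRL1 (2.62 and 2.93 FPKM in eKD2, log2 fold change -0.61, limma adjusted p = 0.22) and LTBP4 (61.0 and 55.3 FPKM in eKD2, log2 fold change 0.49, limma adjusted p = 0.22). They also were SMAD9 (14.3 and 13.2 FPKM in eKD2, limma adjusted p = 0.24) and the co-repressor TGIF1 (25.8 and 26.2 FPKM in eKD2, limma adjusted p = 0.37). GDF15, a stress-induced ligand, was listed at 0 in both RD-ES controls and was at 4.03 and 0.207 FPKM in eKD2 (limma adjusted p = 0.47). Its value rests on RD-ES eKD2 replicate 1, since without RD-ES eKD2 replicate 2 the log2 fold change was 2.33 (adjusted p = 0.0264).

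In SK-N-MC the genes with the smallest p lay lower in eKD2. BMP2 was at 5.99 and 5.78 FPKM in eKD2 (log2 fold change -0.46, limma adjusted p = 0.31), and ITGB5, an integrin chain, went from 90.8 and 96.7 to 76.5 and 78.2 FPKM (log2 fold change -0.27, limma adjusted p = 0.21). NEDD4L, a ubiquitin ligase for activated SMAD2 and SMAD3, went from 43.0 and 41.3 to 31.3 and 21.7 FPKM (log2 fold change -0.67, limma adjusted p = 0.21), and without SK-N-MC eKD2 replicate 1 it passed at -0.93 (0.0246). SNAI2, a repressor known from epithelial to mesenchymal transition, went from 4.90 and 4.75 to 3.12 and 2.86 FPKM (limma adjusted p = 0.26). The receptor ACVR2A (8.67 and 6.63 FPKM in eKD2, limma adjusted p = 0.49) and SMAD1 (28.1 and 28.7 FPKM in eKD2, limma adjusted p = 0.38) gave no call.

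**Figure D5:**
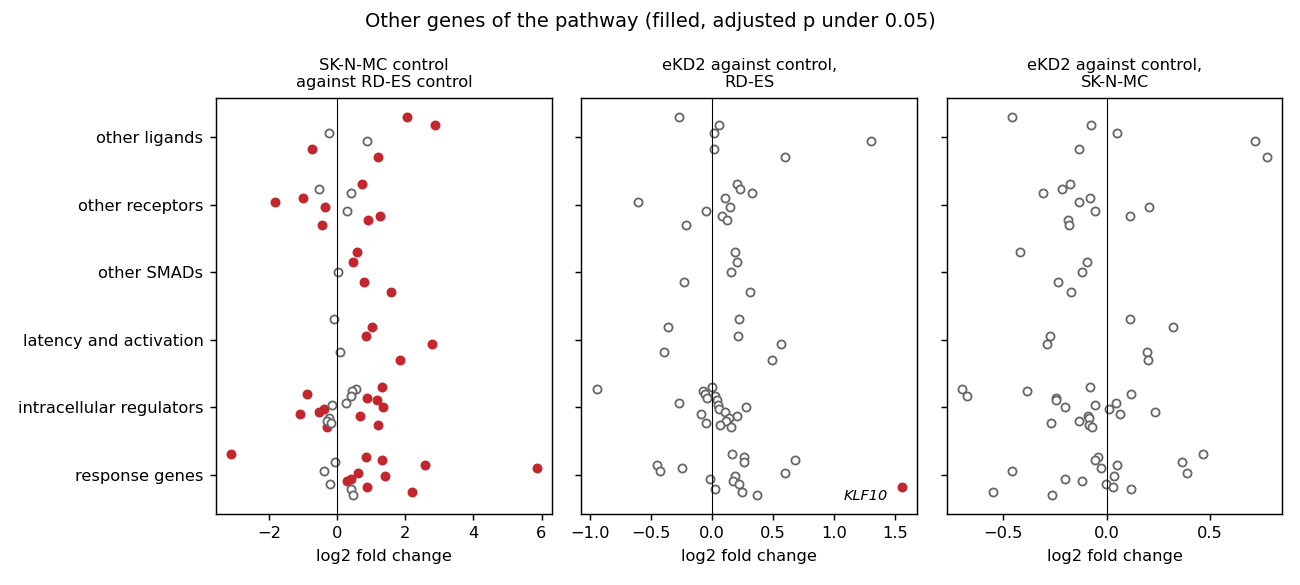
Differences on the log2 scale (x axes) of the 62 pathway genes over the filter in their 6 lists (rows), between the control lines (left) and under eKD2 in RD-ES (middle) and SK-N-MC (right). Filled points passed the adjusted threshold, 41 between the lines, 1 (KLF10) under RD-ES eKD2 and 0 under SK-N-MC eKD2.

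The pattern of TGFBR2 over the 8 libraries, high in RD-ES and highest in RD-ES eKD2, was shared with other genes. Of the 15175 genes over the filter, GALNT9, a glycosyltransferase gene, had the highest Pearson r with it (0.995 over 8 libraries), followed by its relative GALNT18 (0.994) and by the homeobox gene PROX1 (0.994). GALNT9 was at 2.67, 3.46, 3.79 and 6.10 FPKM in the RD-ES libraries and at 0.0816 to 0.270 FPKM in SK-N-MC. The 8 points form 2 clusters, the lines, and 1361 genes had an r above 0.95, so the likeness mostly restates the gap between the lines.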

How the data were processed

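RNA-seq libraries of RD-ES and SK-N-MC cells (2 control and 2 eKD2 of each) were made by the authors with a poly-A kit that does not mark strand and sequenced as single reads of 75 bases. Per the study's methods, reads were aligned to GRCh37 with STAR, and cufflinks and cuffnorm gave the deposited FPKM values per gene and library (reads per transcript length and library size), which any scaling by cuffnorm also enters. The submitters' processing notes list STAR, Cuffnorm, DESeq2 and FastQC. The read counts behind the authors' own DESeq2 test were not used here, and the depth per library was estimated from the steps between low FPKM values.

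Here log2(FPKM + 1) was compared with limma 3.58.1 in R 4.3.3 (lmFit and eBayes with trend, all 4 groups in 1 fit, Benjamini-Hochberg adjustment) over the 15175 genes whose mean reached 1 FPKM. TGFBR2 and TGFB2 were below that filter and were tested among 31445 genes with any value above 0. A fold change on this scale understates the change of low genes. All samples were mapped by their labels, which do not say whether replicates came from separate cultures (the study calls them biological duplicates), so p-values measure the spread between these libraries. Replicates correlated at r = 0.937 to 0.945 across genes, which are not independent.

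The members and lists were chosen with earlier results of these data known. Named were all members, the pathway genes called under eKD2 or in the difference between the lines, otherwise the gene of smallest p per list and line, and up to 3 genes per list with the largest called difference between the lines. The 3 genes most like TGFBR2 were named by Pearson r. Gene positions are from GENCODE v44lift37, matched by ID for 59138 of 60332 genes, and promoter sequences from RefSeq (table of GRCh38.p14), matched for all 9 members and placed on GRCh37 by exact match. Alternatives were another pseudocount, no filter, 2 other scalings, no trend, fits of 2 groups only, a replicate block and leaving out each library.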

Additional observations from a re-analysis of the deposited data

Results flagged for a closer look

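Of the members, SMAD2 and TGFBR1 drew attention because every eKD2 library moved one way in RD-ES and the opposite way in SK-N-MC. For SMAD2, both eKD2 libraries lay above the controls in RD-ES and below them in SK-N-MC, and the log2 difference between the effects was -0.30 (limma adjusted p = 0.29). For TGFBR1 the directions were the other way round, with a log2 difference of 0.48 (limma adjusted p = 0.40). Neither difference passed the test over all genes. In single lines, the libraries of 39.3% (RD-ES) and 47.3% (SK-N-MC) of the 15175 genes stood apart as well. The share with opposite directions in the 2 lines was not counted, so the pattern is not shown to be particular to these members. KLF10, a response gene, was the 1 pathway gene whose eKD2 effect passed the test of a difference between the lines (log2 difference -1.53, limma adjusted p = 0.0074), a call that a replicate block ended (adjusted p = 0.0950). It was higher in both RD-ES eKD2 libraries than in both controls, and its SK-N-MC groups overlapped.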

How the results depend on the processing

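No member was called under eKD2, or in its difference between the lines, in any of the alternatives run, where the smallest adjusted p was 0.162. The calls of TGFB1, TGFB3, SMAD2, SMAD7 and TGFBR2 between the control lines held in all of theirs, and the count of members called there stayed between 4 and 6. Of 415 member values under an alternative, 24 changed sign, 20 of them when a library was left out, and none of these was called. With median scaling the SK-N-MC to RD-ES difference of SMAD3 was -0.014 and the RD-ES effect of SMAD7 -0.034. With quantile normalization the RD-ES effects of SMAD7 and TGFBR3 were -0.059 and -0.0028. Median scaling moved the median difference of all genes between the lines by -0.11 on the log2 scale.

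Without 1 library at a time, log2 changes that turned sign ranged, in RD-ES, from -0.55 to 0.21 for TGFB1, -0.46 to 0.042 for TGFB2, -0.064 to 0.21 for TGFBR3 and -0.025 to 0.073 for SMAD7. In SK-N-MC they ranged from -0.18 to 0.016 for TGFB1, -0.30 to 0.11 for TGFB2, -0.11 to 0.16 for TGFB3 and -0.74 to 0.15 for SMAD3. For the difference between the lines the ranges were -0.29 to 0.47 for TGFB1, -0.14 to 0.37 for TGFB2 and -0.31 to 0.57 for SMAD3, and for SMAD3 between the control lines -0.32 to 0.57.

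Genes called, against 52 in RD-ES, 49 in SK-N-MC and 37 for the difference, numbered 79, 118 and 66 with no filter. In fits of only the groups compared they numbered 1 and 13. Without 1 library they numbered 57 to 71 in RD-ES, 48 to 76 in SK-N-MC and 54 to 81 for the difference. Deviations of samples with the same number were hardly correlated across genes (r = 0.056 in RD-ES, 0.0274 in SK-N-MC and 0.0505 between the control lines). This cannot decide whether they were paired, since noise of single libraries can hide a shared culture and the labels do not say. With the number as a replicate block, 11, 5 and 7 genes were called, the line comparison gave 9067 against 8777, and the KLF10 difference had an adjusted p of 0.095. The block, a fit of fewer residual degrees of freedom, changed no call of a member. Depth limits TGFBR2 and TGFB2 most.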
